A study of Mus musculus with 40 samples.

Results

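Resting bone marrow-derived macrophages lacking the deubiquitinase gene Otulin were compared with resting macrophages that kept it. The 8 libraries were chosen by their labels as those taken at 0 h, before any lipopolysaccharide (LPS), out of 40 libraries in the series. The 4 knock-out (KO) libraries came from mice of genotype OtulinFL/FL LysMCreTg/WT, in which Cre recombinase is made from the LysM (Lyz2) locus and removes the floxed Otulin exons in myeloid cells. The 4 wild-type (WT) libraries came from OtulinFL/FL mice, which carry the same floxed alleles and no Cre. Both groups had been differentiated from marrow in medium conditioned by L929 fibroblasts, a source of the growth factor M-CSF, and reseeded before harvest. No group had Cre without the floxed alleles, so the loss of Otulin and the presence of Cre at the Lyz2 locus cannot be told apart. The labels give no age and do not say whether each library is a separate mouse, so p-values measure the spread between these libraries.

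OTULIN cuts linear ubiquitin chains, in which ubiquitin molecules are joined head to tail. These chains are built by LUBAC, a complex of HOIP (gene Rnf31), HOIL-1 (Rbck1) and SHARPIN, on the signalling complexes of TNF and Toll-like receptors, where they recruit the kinases that switch on NF-κB and hold back cell death. Loss of OTULIN in humans and mice is known for autoinflammation, and macrophages are both a source and a target of the cytokines involved.

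RNA was read as 3′ tags (QuantSeq 3′ FWD), so a transcript contributes about 1 tag whatever its length, and CPM (counts per 1000000 counts of the library, after TMM scaling) compare levels between genes per transcript. Totals ran from 4392316 to 6290327 counts in KO libraries and from 4743191 to 5716348 in WT libraries. Of 23496 genes with at least 1 count, 11734 had enough counts to be tested, 11579 of them with a symbol. All 30 genes of a macrophage identity list were measured, 25 of them at a mean above 100 CPM. By Xist and Y-linked genes, KO 3 and WT 4 came from males and the other 6 libraries from females.

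One library stood apart from the rest. KO 1 had a score of 42.3 on the first principal component, which held 33.4% of the variance, against −15.4 to 0.14 for the other 7 libraries. Its correlation with each other library was 0.961 to 0.970, while all other pairs lay between 0.983 and 0.990. In KO 1, 233 genes lay more than 2-fold from the median of the other libraries, against 19 to 46 genes for each of the other 7. Examples, chosen after their values were seen, are the nuclear RNA Malat1, at 2361 CPM in KO 1 and 4811 to 6725 CPM in the others, and Gpx4, a lipid peroxidase, at 69.5 CPM in KO 1 and 3.47 to 9.99 CPM in the others. The label of KO 1 is like those of the other KO libraries, and it was kept; values without it are given beside the counts and medians of gene lists and beside the calls.

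**Figure D1:**
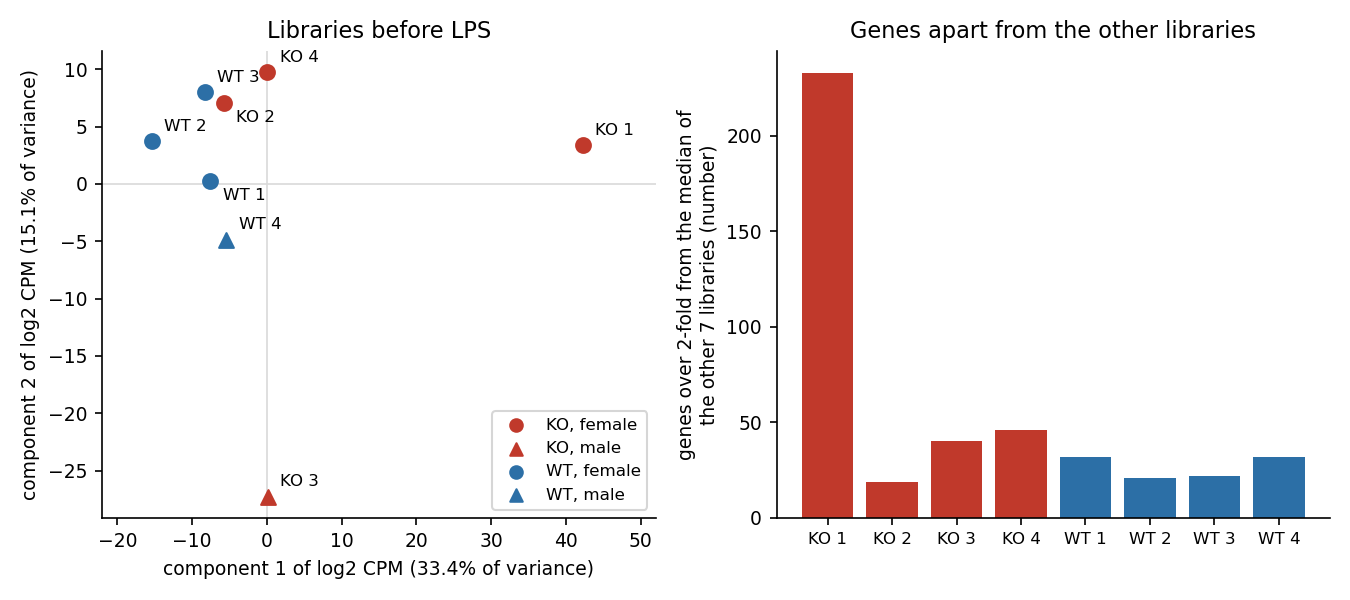
The left panel shows each library's scores on the first 2 principal components of log2 CPM, and the right panel the number of genes lying more than 2-fold from the median of the other 7 libraries. KO libraries are red, WT libraries blue and males triangles; KO 1 stands at 42.3 on the first component and counts 233 such genes, and the male KO 3 is lowest on the second.

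The most abundant transcripts in both genotypes included those of iron storage, lysosomal and lipid-handling genes. Fth1 and Ftl1, the chains of the iron store ferritin, averaged 5328 and 3125 CPM in KO libraries and 4790 and 2783 CPM in WT libraries. The lysosomal genes Psap (saposin precursor), Ctsb, Ctsd and Ctss (cathepsins) averaged 4798, 4215, 2852 and 2759 CPM in KO libraries, against 4590, 3882, 2541 and 2512 CPM in WT libraries. Lpl, which releases fatty acids from lipoproteins, averaged 4180 CPM in KO libraries and 3661 CPM in WT libraries, and Gpnmb, a lysosome-associated glycoprotein, 3777 and 3523 CPM. None of these 8 genes passed the test. The 20 most abundant identifiers took 6.72% to 7.74% of counts in KO libraries and 6.98% to 7.65% in WT libraries, so no few genes dominated either genotype. The most abundant of them, at a mean of 9705 CPM in KO and 9443 CPM in WT libraries, has no symbol in the annotation used.

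The set of genes detected was nearly the same in both genotypes. In all 8 libraries, 11619 genes reached 1 CPM, 8215 reached 10 CPM, 2104 reached 100 CPM and 48 reached 1000 CPM. At 1 CPM, 2 genes reached the level in every KO library and in no WT library, and 19 did so in every WT library and in no KO library. One of the 2 was Piwil4, a PIWI-family protein gene, at 1.22 to 1.62 CPM in KO libraries, against 0.408 to 0.625 CPM in WT libraries; named outside the naming rule after its value was seen, it lies close to the limit in both. At 1000 CPM, Mmp12, a macrophage elastase, was the single gene above the level in every KO library and below it in every WT library.

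No gene passed the test between KO and WT at an adjusted p of 0.05. The edgeR quasi-likelihood test with Benjamini-Hochberg adjustment called 0 of 11734 genes, or 0%, and limma-voom also called 0. The smallest adjusted p in edgeR was 0.0661, for Ccnd2, and 22 genes had an adjusted p below 0.2. Unadjusted, 900 genes (7.67%) had p below 0.05, of which 406 (3.46% of genes tested) were higher and 494 (4.21%) lower in KO. The values of all 4 KO libraries lay above those of all 4 WT libraries in 284 genes (2.42%) and below them in 301 genes (2.57%). With DESeq2, 25 of 11643 genes (0.215%) passed, and KO exceeded WT in 20 of these. Leaving out KO 1, the edgeR calls came to 18 of 11899 genes (0.151%), of which KO exceeded WT in 14; there were 2 calls without KO 2 and 2 without KO 4. The 2 sets of calls shared 12 genes, 66.7% of those called without KO 1 and 48% of those called by DESeq2.

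The intervals bound the size of most differences. Of 10227 genes at a mean of 5 CPM or more, 9905 (96.9%) had a 95% interval of the log2 fold change lying wholly within 1 of 0, and 7722 (75.5%) within 0.5 of 0. The median standard error of these genes was 0.112. Only 26 of them differed by more than 1 log2 unit in their estimate, 14 higher and 12 lower in KO, with a range of −2.19 to 2.02. Over all genes tested the median log2 fold change was 0.0018, and 50.5% lay above 0.

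**Figure D2:**
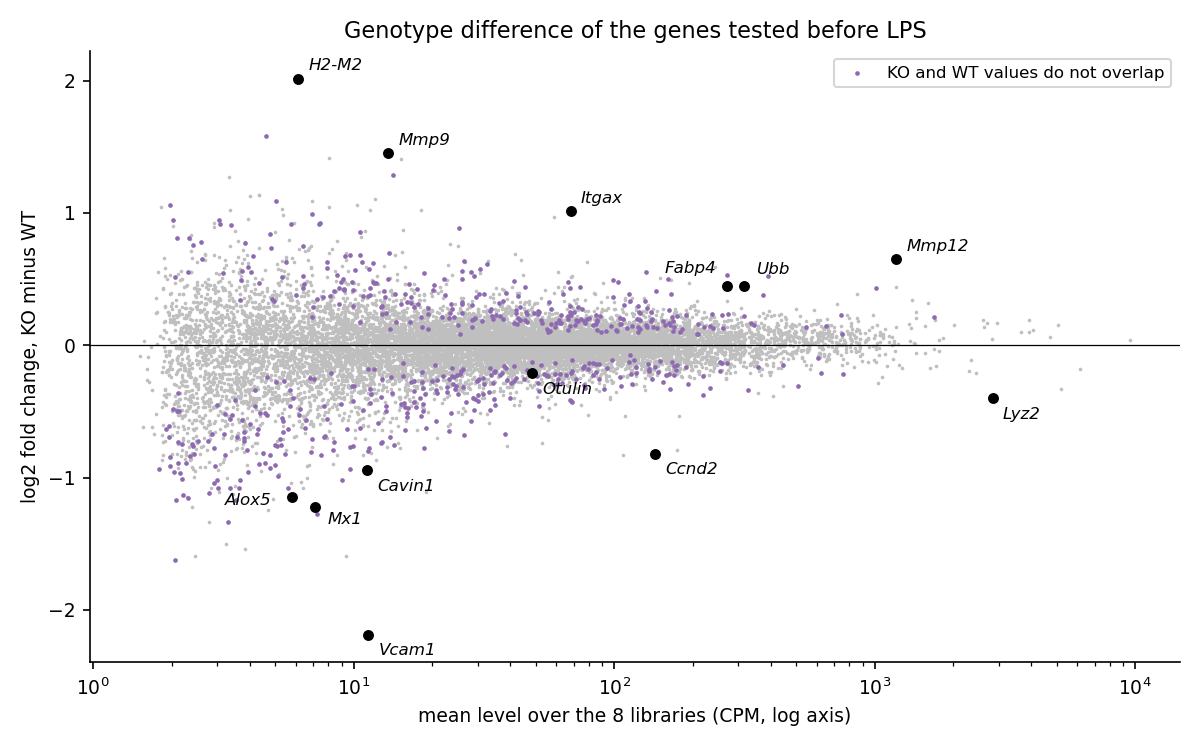
The log2 fold change of each of 11734 genes, KO minus WT, is plotted against its mean level over the 8 libraries in CPM on a log axis. Purple points are genes whose KO and WT values do not overlap and black points are genes named in the text; none passed the edgeR test at an adjusted p of 0.05, and differences above 1 log2 unit are mostly at low levels.

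The targeted gene itself was read at similar levels in both groups. Otulin (ENSMUSG00000046034) had 54.4, 38.1, 39.6 and 47.3 CPM in KO 1 to KO 4 and 53.1, 48.2, 55.8 and 49.8 CPM in WT 1 to WT 4. KO 1 lay within the WT range and the other 3 KO libraries below it. The log2 fold change was −0.21 ± 0.114 (SE), with an edgeR adjusted p of 0.685, and was −0.32 without KO 1, with an adjusted p of 0.254; over all 20 alternatives the adjusted p ran from 0.254 to 0.960. A 3′ tag lies at the end of the transcript, and the labels do not say which exons were deleted, so this level checks neither the deletion nor the labels.

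Lyz2, the lysozyme gene that carries the Cre insertion in KO mice, had 3034, 1996, 2560 and 2184 CPM in KO libraries and 3192, 3051, 3216 and 3456 CPM in WT libraries. All 4 KO values lay below all 4 WT values, KO 1 narrowly so. KO minus WT came to a log2 fold change of −0.40 ± 0.114, with an edgeR adjusted p of 0.360. Without KO 1 it was −0.52 with an adjusted p of 0.0154, and over all 20 alternatives the adjusted p ran from 0.0027 to 0.922. The level of Lyz2 in KO libraries and the presence of Cre in that gene cannot be told apart from a difference due to Otulin.

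Most other genes of the linear ubiquitin system lay close to WT. HOIP's gene Rnf31 averaged 13.7 CPM in KO and 13.0 CPM in WT libraries, with a log2 fold change of 0.08 ± 0.185 that turned negative without KO 4. Rbck1 averaged 43.1 CPM in KO and 48.3 CPM in WT libraries, Sharpin 26.0 and 28.7 CPM, and Cyld, the other deubiquitinase acting on linear chains, 110 and 125 CPM. Their log2 fold changes were −0.16 ± 0.100, −0.14 ± 0.112 and −0.19 ± 0.129, with edgeR adjusted p of 0.710, 0.754 and 0.723. Otulinl, a related gene whose protein has no known ubiquitin-cutting activity, had 147 to 176 CPM in KO libraries, against 180 to 190 CPM in WT libraries, a log2 fold change of −0.19 ± 0.074 with an adjusted p of 0.553.

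Farthest from WT in this list was Tnfaip3, which encodes A20, an NF-κB target that binds linear chains and restrains the same pathway. It had 50.6, 33.3, 37.3 and 37.1 CPM in KO libraries and 26.8, 21.9, 24.2 and 30.0 CPM in WT libraries. Every KO value lay above every WT value, and KO 1 was the highest. On the log2 scale the fold change was 0.61 ± 0.139 with an edgeR adjusted p of 0.210, and 0.47 without KO 1. Of the 19 genes of this list, 9 lay above 0 with a median of −0.03, beside 50.5% and 0.0018 for all genes; 1 gene was higher and 1 lower at an unadjusted p below 0.05, beside 3.46% and 4.21% of all genes, and 0 were called. Without KO 1, 11 of the 19 lay above 0 with a median of 0.01.

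Ubb, which encodes ubiquitin itself as a chain of repeats, was among the genes of smallest p. It had 428, 339, 352 and 336 CPM in KO libraries and 260, 274, 273 and 260 CPM in WT libraries. Every KO value lay above every WT value, and KO 1 was the highest. The log2 fold change of Ubb was 0.45 ± 0.085, with an edgeR adjusted p of 0.137, and without KO 1 it was 0.36 with an adjusted p of 0.0154; its adjusted p ran from 2.3e-04 to 0.573 over all 20 alternatives. Ubb has near-identical pseudogene copies, so the split of their reads is uncertain.

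Inflammatory genes showed no resting difference that passed the test. Tnf had 31.4, 33.3, 29.4 and 28.9 CPM in KO libraries and 30.7, 31.3, 33.6 and 37.4 CPM in WT libraries, a log2 fold change of −0.11 ± 0.100 with an edgeR adjusted p of 0.774. The ranges overlapped, and the level was modest in both genotypes. Il1b averaged 2.66 CPM in KO and 3.80 CPM in WT libraries. Il12a, Csf2, Csf3 and Ifnb1 had 0 counts in all 8 libraries. Of 11 cytokine genes tested, 6 lay above 0 with a median of 0.0058, a sign that turns under scaling by library totals. Without KO 1, 3 of the 11 lay above 0 with a median of −0.08. Gdf15, a stress-induced TGF-β family cytokine, had the smallest p of them, at 249 to 326 CPM in KO libraries, against 345 to 398 CPM in WT libraries, with a log2 fold change of −0.33 ± 0.091 and an edgeR adjusted p of 0.341.

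Sensors and NF-κB components were likewise near WT. Nlrp3, an inflammasome sensor, averaged 37.7 CPM in KO and 39.5 CPM in WT libraries, and Casp1, the inflammasome protease, 122 and 120 CPM. Of 14 inflammasome genes tested, 8 lay above 0 with a median of 0.02. At an unadjusted p below 0.05, 0 were higher and 0 lower, beside 3.46% and 4.21% of all genes. Without KO 1 these were 5 of 14, −0.05, and 1 gene lower at that p. Of 25 NF-κB genes, 10 lay above 0 with a median of −0.06. Tnfaip3 was the 1 gene higher at an unadjusted p below 0.05 and 0 were lower, beside the same 3.46% and 4.21%. Without KO 1, 11 of the 25 lay above 0 with a median of −0.03. Nfkbia, the inhibitor IκBα and an NF-κB target, had 232, 345, 349 and 306 CPM in KO libraries and 324, 354, 363 and 388 CPM in WT libraries, with a log2 fold change of −0.21 ± 0.114 and an edgeR adjusted p of 0.683.

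Among 16 Toll-like receptor genes tested, 10 lay above 0, with a median of 0.07, and without KO 1, 8 did, with a median of −0.009. Tlr2, the receptor for bacterial lipoproteins, had 40.8, 47.6, 51.1 and 34.4 CPM in KO libraries and 57.0, 62.7, 56.0 and 63.3 CPM in WT libraries. All 4 KO values were below all 4 WT values, with a log2 fold change of −0.46 ± 0.113 and an edgeR adjusted p of 0.285. Its partner Tlr6 had a log2 fold change of 0.28 ± 0.117 (adjusted p 0.575), with overlapping values. Cd14, the LPS co-receptor, averaged 159 CPM in KO and 151 CPM in WT libraries.

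Cell death genes gave 10 of 24 above 0 and a median of −0.0079 with all libraries, and 17 of 24 and 0.05 without KO 1. In this list 4 genes lay higher and 0 lower in KO without overlap, beside 2.42% and 2.57% of all genes. At an unadjusted p below 0.05, 3 were higher and 0 lower, beside 3.46% and 4.21% of all genes. Without KO 1, 2 were higher and 0 lower at that p. Ripk3, the necroptosis kinase, had 12.6, 9.80, 9.03 and 10.4 CPM in KO libraries and 7.90, 6.88, 7.95 and 8.62 CPM in WT libraries. Its values did not overlap, and the log2 fold change was 0.42 ± 0.168 with an edgeR adjusted p of 0.566. Its substrate Mlkl averaged 11.2 CPM in KO and 11.5 CPM in WT libraries, and Ripk1 averaged 77.6 and 82.5 CPM. Casp8, which blocks necroptosis, had 31.8 CPM in KO 1 and 48.1 to 49.3 CPM in KO 2 to KO 4, against 45.2 to 48.6 CPM in WT libraries, so its difference turned sign without KO 1. Bcl2a1b and Mcl1, both anti-apoptotic, had non-overlapping higher values in KO, at 156 to 223 and 654 to 706 CPM, against 145 to 151 and 613 to 627 CPM in WT libraries; their edgeR adjusted p were 0.540 and 0.644. KO 1 was the highest library for Bcl2a1b, whose log2 fold change was 0.27 with all libraries and 0.14 without KO 1. Bcl2a1b has close paralogs that can share its reads.

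The genes with the smallest p had varied roles, and the first was a cell cycle gene. Ccnd2, the cyclin D2 gene, which drives entry into the cell cycle, had 81.0, 110, 103 and 121 CPM in KO libraries and 181, 210, 173 and 168 CPM in WT libraries. Every KO value was lower than every WT value by a clear gap, and KO 1 was the lowest. This gave a log2 fold change of −0.82 ± 0.113, a level 0.567 times that of WT, with an edgeR adjusted p of 0.0661. Without KO 1 it was −0.72 with an adjusted p of 4.2e-04, and over all 20 alternatives the adjusted p ran from 1.7e-16 to 0.345. Every range over the 20 alternatives in this text includes a fit without a filter on low counts, which called 177 genes. The estimated prior degrees of freedom of that fit were infinite. With DESeq2 the adjusted p of Ccnd2 was 5.0e-07. The related Ccnd1 averaged 647 CPM in KO and 694 CPM in WT libraries. Of 26 mitosis genes 0 had an unadjusted p below 0.05, beside 7.67% of all genes. Their median was −0.07 with 9 above 0. Without KO 1 it was −0.03 with 8 above 0, and without the 2 males −0.17 with 3 above 0.

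Itgax, the integrin CD11c found on dendritic cells and on some tissue macrophages, had 115, 73.4, 99.1 and 77.6 CPM in KO libraries and 48.2, 47.5, 34.0 and 50.2 CPM in WT libraries. The lowest KO library stood well above the highest WT library. The log2 fold change was 1.01 ± 0.156 with an edgeR adjusted p of 0.124, and 0.88 without KO 1 with an adjusted p of 0.0427; over all 20 alternatives the adjusted p ran from 7.9e-19 to 0.573. Its partner Itgb2 had a log2 fold change of 0.26 ± 0.105 (edgeR adjusted p 0.556), with overlapping values, and Itgam, CD11b, one of 0.11 ± 0.078. Dendritic cell markers summed to 42.4 to 64.8 CPM in KO libraries, against 59.6 to 73.2 CPM in WT libraries. Most of that sum was Bst2, which macrophages also express, and 10 of the 13 dendritic markers averaged below 1 CPM.

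Among metalloprotease and inhibitor genes, 4 members had higher and 0 lower values in KO without overlap, beside 2.42% and 2.57% of all genes. Of these 4, 3 are given here. Mmp12, an elastase made by macrophages, had 1683, 1175, 1653 and 1418 CPM in KO libraries and 958, 944, 886 and 983 CPM in WT libraries. KO 2 was the lowest of the KO libraries and still exceeded every WT library. KO minus WT came to a log2 fold change of 0.65 ± 0.105 with an edgeR adjusted p of 0.124, and 0.58 without KO 1 with an adjusted p of 0.0154; over all 20 alternatives the adjusted p ran from 2.7e-10 to 0.573. Mmp9, gelatinase B, had 21.4, 12.8, 17.4 and 27.8 CPM in KO libraries and 4.12, 6.46, 6.11 and 12.2 CPM in WT libraries, with KO 2 just above WT 4. Its log2 fold change was 1.45 ± 0.320 with an edgeR adjusted p of 0.253. Mmp14, which activates other metalloproteases at the cell surface, had 27.1 to 43.9 CPM in KO libraries, against 22.9 to 26.1 CPM in WT libraries, a log2 fold change of 0.58 ± 0.133 with an edgeR adjusted p of 0.210. Of 15 metalloprotease and inhibitor genes tested, 11 lay above 0 with a median of 0.06, and 4 were higher and 0 lower at an unadjusted p below 0.05, beside 3.46% and 4.21% of all genes. Without KO 1, 9 of the 15 lay above 0 with a median of 0.03, with 4 higher and 1 lower at that p, and 1 was called.

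H2-M2, a non-classical class I histocompatibility gene, had the highest log2 fold change among genes of at least 5 CPM. It had 6.93, 8.55, 6.71 and 17.0 CPM in KO libraries and 1.89, 2.50, 3.87 and 1.37 CPM in WT libraries. The groups did not overlap, and KO 4 was highest. On the log2 scale the fold change was 2.02 ± 0.370, or 4.05-fold with a 95% interval of 2.32 to 7.05, with an edgeR adjusted p of 0.137. Without KO 1 the adjusted p was 0.0427, and over all 20 alternatives it ran from 2.7e-10 to 0.573. The classical genes H2-D1 and H2-K1, whose sequences are close to each other, had log2 fold changes of 0.11 ± 0.073 and 0.03 ± 0.085, that of H2-K1 running from −0.0056 to 0.095 over the alternatives. Of 21 class I presentation genes, 18 lay above 0 with a median of 0.11. At an unadjusted p below 0.05, 1 was higher and 0 lower, beside 3.46% and 4.21% of all genes. Without KO 1, 15 lay above 0 with a median of 0.08.

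Vcam1, an adhesion molecule that binds the integrin VLA-4, had the lowest log2 fold change among genes of at least 5 CPM. It had 3.26, 2.80, 9.49 and 1.13 CPM in KO libraries and 9.62, 17.7, 14.5 and 32.5 CPM in WT libraries. KO 3 and WT 1 nearly met, and the spread within both groups was wide. This gave a log2 fold change of −2.19 ± 0.578, a level 0.22 times that of WT with a 95% interval of 0.0873 to 0.553, and the edgeR adjusted p was 0.425. With the sex of the animal as a covariate the adjusted p was 0.0488, the single call of that fit; over all 20 alternatives it ran from 0.0030 to 0.939.

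**Figure D3:**
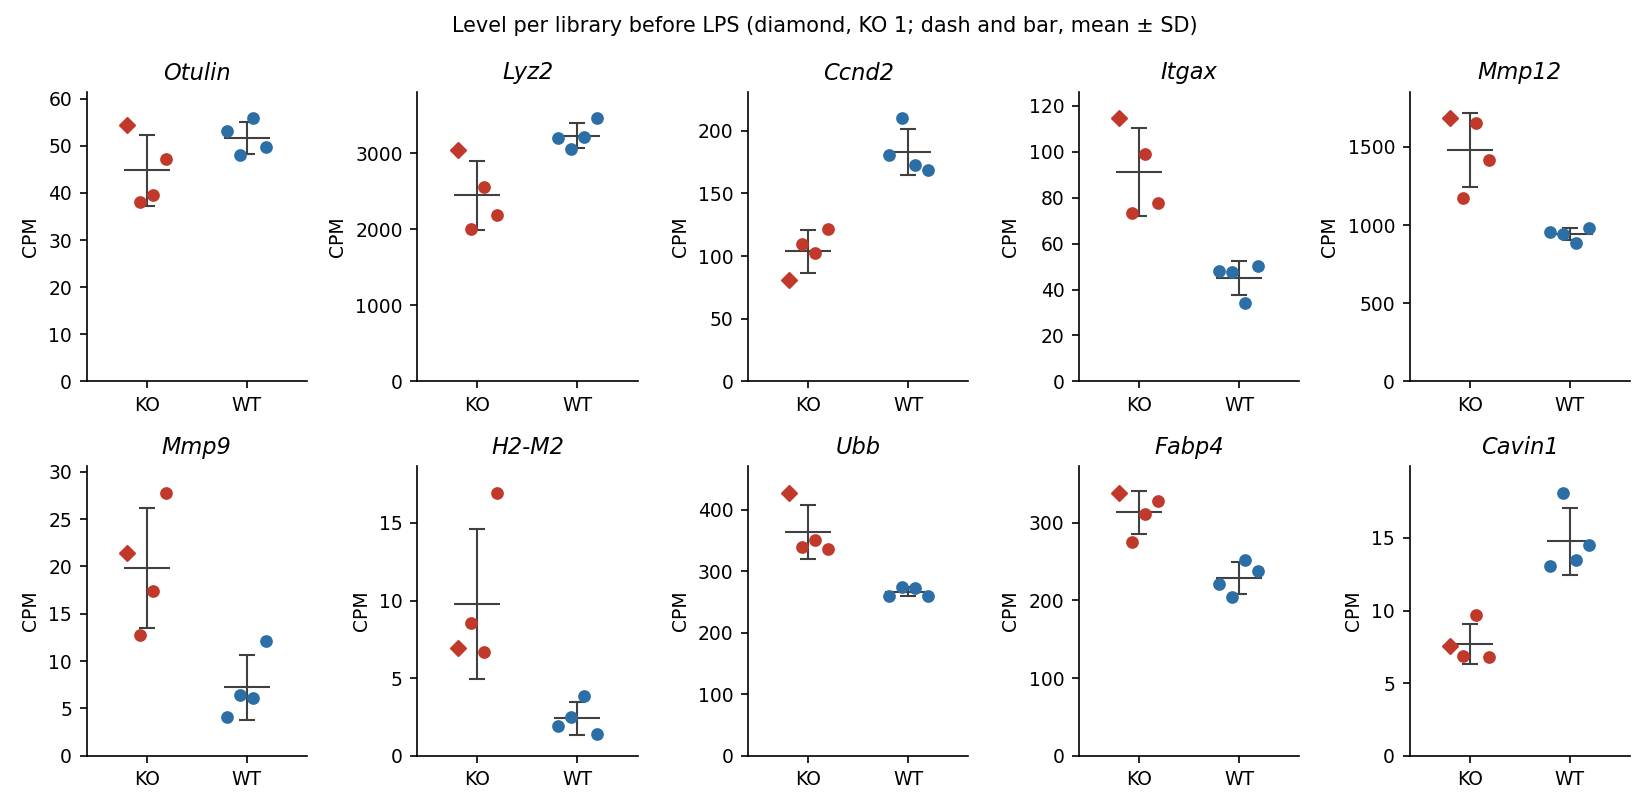
Each panel shows 1 gene's level in CPM, from 0, in the 4 KO and the 4 WT libraries, with KO 1 as a diamond and the group mean ± SD as a dash and bar. Otulin overlaps between genotypes, Lyz2, Ccnd2 and Cavin1 lie lower in KO, and Itgax, Mmp12, Mmp9, H2-M2, Ubb and Fabp4 lie higher, with no edgeR adjusted p below 0.0661.

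The other genes of smallest p included a fatty acid carrier and components of membranes and microtubules. Fabp4, a fatty acid carrier induced by PPARγ, had 339, 275, 311 and 328 CPM in KO libraries and 222, 205, 252 and 238 CPM in WT libraries. The groups were clear of each other, with a log2 fold change of 0.45 ± 0.087 and an edgeR adjusted p of 0.137, or 0.0324 without KO 1 and 2.2e-04 to 0.637 over all 20 alternatives. Nt5dc2, a nucleotidase-domain protein, had 56.1 to 60.8 CPM in KO libraries, against 70.1 to 84.0 CPM in WT libraries, and Cavin1, a caveola coat protein, 6.78 to 9.72 and 13.1 to 18.1 CPM. Their log2 fold changes were −0.42 ± 0.081 and −0.94 ± 0.173, each with an edgeR adjusted p of 0.137. Without KO 1 both had an adjusted p of 0.0427, and over all 20 alternatives it ran from 0.0078 to 0.634 for Nt5dc2 and from 6.1e-04 to 0.573 for Cavin1. Map6, a microtubule-binding protein, had 16.5 to 17.3 CPM in KO libraries, against 9.44 to 10.8 CPM in WT libraries, and Dynlt1a, a dynein light chain with near-identical copies, 9.64 to 12.0 and 15.5 to 18.7 CPM. Both had an edgeR adjusted p of 0.137, and neither was called without KO 1.

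The next genes were taken for the largest log2 fold changes among those without overlap between genotypes at a mean of at least 5 CPM. They were mostly below 30 CPM. Genes with overlapping values were left out, even at larger log2 fold changes, such as −1.23 for Mx1. On the higher side, Arrdc4, Pde1c, Mamdc2, Hbegf (a heparin-binding EGF-like growth factor), Lrrc41, Slamf8 (a macrophage surface receptor) and Icam2 (an adhesion molecule) had log2 fold changes of 0.75 to 0.99. Their values do not overlap because the rule took only such genes, and the edgeR adjusted p of these 7 were 0.168 to 0.550. Icam2 rested on 1 library, at 17.7 CPM in KO 1 and 6.10 to 6.69 CPM in KO 2 to KO 4, against 3.33 to 6.05 CPM in WT libraries, and its log2 fold change was 0.47 without KO 1. On the lower side, Alox5 (5-lipoxygenase, which starts leukotriene synthesis), Il1r2 (the decoy receptor of interleukin-1), Tnfsf8 (CD30 ligand), Aldh1l2 (a mitochondrial folate enzyme), Cdc42bpa (a kinase that acts on the cytoskeleton), Tspoap1, Mir99ahg, S100a9 and Klk1b11 had log2 fold changes of −1.14 to −0.73. Alox5 had 4.28, 4.04, 4.17 and 1.81 CPM in KO libraries and 8.58, 11.1, 6.52 and 5.88 CPM in WT libraries, and Il1r2 averaged 3.41 CPM in KO and 6.81 CPM in WT libraries. These 9 genes had edgeR adjusted p of 0.161 to 0.471, and Klk1b11 has close paralogs.

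Of the 18 genes called without KO 1, 10 are described above or below by the naming rule, and the other 8 fall outside it and were chosen after their values were seen, 1 of them without an established symbol. Rhoc, a GTPase of the actin cytoskeleton, had 116, 143, 156 and 169 CPM in KO libraries and 114, 104, 119 and 118 CPM in WT libraries, so KO 1 alone lay among the WT values. Pls3, which bundles actin, had 62.8 to 75.9 CPM in KO libraries, against 52.9 to 59.0 CPM in WT libraries. Pdpn, the membrane glycoprotein podoplanin, had 70.6 to 84.9 CPM in KO libraries, against 51.5 to 65.2 CPM in WT libraries. These values did not overlap for Pls3 and Pdpn, and with all 8 libraries the log2 fold changes of Rhoc, Pls3 and Pdpn were 0.36, 0.39 and 0.48, with edgeR adjusted p of 0.360, 0.201 and 0.161. S100a11, a calcium-binding protein, Il2rg, the common cytokine receptor chain, Igsf6, an immunoglobulin-family receptor, and Clec7a, the β-glucan receptor dectin-1, had log2 fold changes of 0.39, 0.44, 0.34 and 0.50 with all 8 libraries and adjusted p of 0.137 to 0.392. Clec7a was among the smallest p of the scavenger and lectin receptor list, but the annotation used calls it a polymorphic pseudogene. The naming rule leaves pseudogenes out, so Clec7a is named as an exception.

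**Figure D4:**
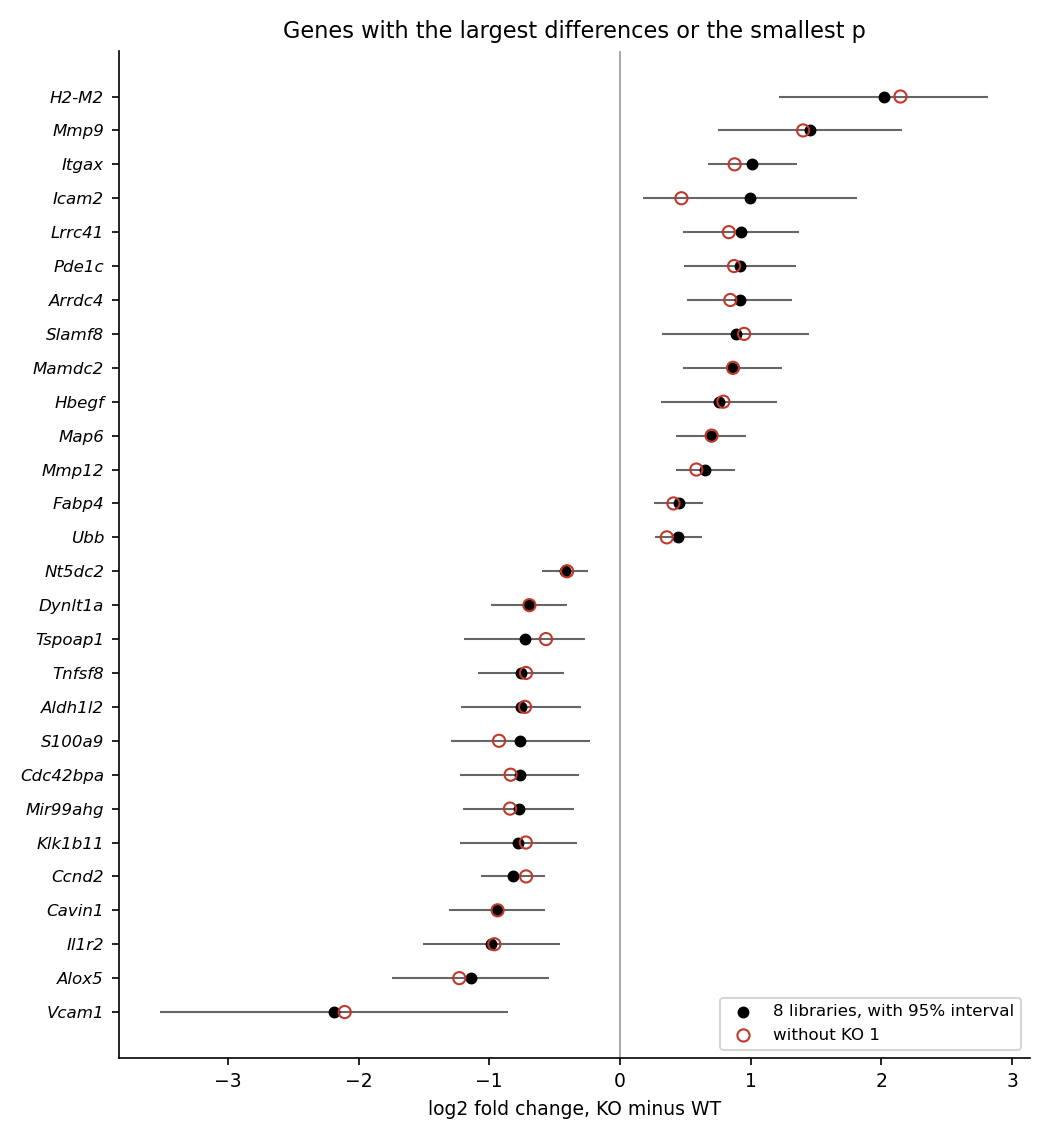
Log2 fold changes, KO minus WT, are shown for genes picked for the largest differences without overlap or the smallest p. Black points and lines are the values with their 95% intervals from edgeR, and red circles the values without KO 1. The values run from −2.19 for Vcam1 to 2.02 for H2-M2, and of the genes plotted Vcam1 has the widest interval.

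Described by gene class, 17 of 19 lipid efflux, storage and PPARγ genes tested lay above 0 with a median of 0.20. Of them 8 were higher and 0 lower at an unadjusted p below 0.05, beside 3.46% and 4.21% of all genes, and 0 were called. Fabp5, a fatty acid carrier, had 2074, 1578, 1673 and 1792 CPM in KO libraries and 1294, 1256, 1603 and 1542 CPM in WT libraries. The groups met at KO 2 and WT 3, and the log2 fold change was 0.32 ± 0.105 with an edgeR adjusted p of 0.471. Pltp, a phospholipid transfer protein, had 143, 112, 118 and 108 CPM in KO libraries and 79.8, 75.3, 93.7 and 97.0 CPM in WT libraries, without overlap, and a log2 fold change of 0.48 ± 0.107 with an adjusted p of 0.201. Cd36, a scavenger receptor that takes up oxidised lipid, had 1699, 1184, 1478 and 1227 CPM in KO libraries and 1013, 887, 1021 and 1196 CPM in WT libraries, with KO 2 just under WT 4 and a log2 fold change of 0.44 ± 0.121 (edgeR adjusted p 0.349). KO 1 was the highest library for Fabp5, Pltp and Cd36. Without KO 1 the list's median was 0.14, with 15 of 19 above 0, 5 genes higher and 0 lower at an unadjusted p below 0.05, and 1 called. By contrast, of 27 sterol and fatty acid synthesis genes 8 lay above 0 with a median of −0.07. At an unadjusted p below 0.05, 0 were higher and 2 lower, beside 3.46% and 4.21% of all genes. Without KO 1, 7 lay above 0 with a median of −0.04, and 0 were higher and 3 lower at that p. The 2 lower genes with all libraries were Fasn and Dhcr7. Fasn, the fatty acid synthase, had 125 to 128 CPM in KO libraries, against 134 to 154 CPM in WT libraries. Dhcr7, which makes the last step to cholesterol, had 16.5 to 19.4 and 19.8 to 23.0 CPM. Their edgeR adjusted p were 0.524 and 0.585.

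Osteoclast genes, which macrophages share with the bone-resorbing cells of the same lineage, lay above 0 in 10 of 10 genes tested with a median of 0.11. The count was 8 of 10 without KO 1, where the median was 0.08, and also 8 of 10 under scaling by library totals and without the 2 males. Ctsk, the collagen-degrading cathepsin K, had 14.3, 10.7, 12.0 and 15.2 CPM in KO libraries and 7.73, 7.50, 10.4 and 8.03 CPM in WT libraries. Its values did not overlap, with a log2 fold change of 0.63 ± 0.172 and an edgeR adjusted p of 0.341. Atp6v0d2, a proton pump subunit needed for macrophage fusion, had 341, 225, 279 and 322 CPM in KO libraries and 181, 166, 187 and 241 CPM in WT libraries, with KO 2 below WT 4. Its log2 fold change was 0.59 ± 0.140 with an edgeR adjusted p of 0.285. Of 14 cathepsin genes 13 lay above 0 with a median of 0.13, which was 0.01 with 8 above 0 when KO 1 was left out.

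Chemokines had a median of 0.21 with 10 of 14 above 0, and 0.02 with 7 of 14 above 0 without KO 1. Ccl6, which draws in macrophages in mice, had 1220, 1047, 1085 and 1292 CPM in KO libraries and 759, 741, 933 and 1001 CPM in WT libraries, just without overlap. The log2 fold change was 0.43 ± 0.107 with an edgeR adjusted p of 0.285. Cxcl16, a membrane chemokine and scavenger receptor, had 42.9 to 55.9 CPM in KO libraries, against 33.6 to 40.4 CPM in WT libraries, and a log2 fold change of 0.38 ± 0.106 with an edgeR adjusted p of 0.360.

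Respiratory genes encoded in the nucleus and in the mitochondrion lay on opposite sides of 0. Of 49 nuclear oxidative phosphorylation genes, 43 lay above 0 with a median of 0.11, and without KO 1 34 did with a median of 0.03. Of 13 mitochondrially encoded genes, 1 lay above 0 with a median of −0.17, and without KO 1 0 did with a median of −0.18. With all libraries 0 were higher and 3 lower at an unadjusted p below 0.05, beside 3.46% and 4.21% of all genes. Without KO 1, 0 were higher and 5 lower at that p. The mitochondrially encoded genes took 1.20% to 1.43% of counts in KO and 1.35% to 1.63% in WT libraries, so the ranges overlapped. The subunit mt-Co1 of cytochrome oxidase had 728, 712, 614 and 731 CPM in KO libraries and 736, 833, 857 and 820 CPM in WT libraries, with a log2 fold change of −0.22 ± 0.081 and an edgeR adjusted p of 0.526. Cytosolic ribosomal protein genes lay above 0 in 50 of 58 with a median of 0.08, and in 29 of 58 with a median of −0.003 without KO 1, in which they took 3.77% of counts against 2.97% to 3.32% in the other libraries.

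Most interferon response genes lay below 0. Of 36 tested, 10 lay above 0 with a median of −0.15, or −0.09 without KO 1. At an unadjusted p below 0.05, 1 was higher and 1 lower, beside 3.46% and 4.21% of all genes. Without KO 1, 1 was higher and 0 lower at that p. Mx1, an antiviral GTPase, had 3.47, 3.73, 5.09 and 4.75 CPM in KO libraries and 2.75, 8.96, 17.7 and 10.6 CPM in WT libraries. WT 1 lay below all KO libraries and the other 3 WT libraries above them, and the log2 fold change was −1.23 ± 0.458 with an edgeR adjusted p of 0.552. Rsad2, the antiviral enzyme viperin, had 110, 119, 172 and 177 CPM in KO libraries and 88.9, 196, 311 and 241 CPM in WT libraries, with the same low WT 1 (edgeR adjusted p 0.737). Of 12 class II presentation and costimulation genes, 3 lay above 0 with a median of −0.14. At an unadjusted p below 0.05, 0 were higher and 3 lower, beside the same 3.46% and 4.21%. Without KO 1, 4 of the 12 lay above 0 with a median of −0.26, and 0 were higher and 2 lower at that p. H2-Ab1, a class II chain, had 14.9 to 25.5 CPM in KO libraries, against 21.6 to 35.7 CPM in WT libraries (edgeR adjusted p 0.556).

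Other classes held single genes of larger difference. Slc7a11, the cystine transporter and an NRF2 target, had 52.8, 71.5, 71.7 and 70.5 CPM in KO libraries and 53.2, 51.7, 46.0 and 51.9 CPM in WT libraries. KO 1 lay among the WT values and the other 3 KO libraries above them. With all libraries the log2 fold change was 0.39 ± 0.105 and the edgeR adjusted p 0.337, and without KO 1 these were 0.49 and 0.0154, over a range of 0.0154 to 0.922 for the 20 alternatives. Of 19 NRF2 targets tested, 12 lay above 0 with a median of 0.07, and without KO 1, 11 did with a median of 0.0089. Egr2, a transcription factor of the immediate early class, had 51.8, 36.1, 58.6 and 59.5 CPM in KO libraries and 26.1, 25.4, 36.1 and 39.2 CPM in WT libraries, with KO 2 among the WT values (log2 fold change 0.69 ± 0.181, edgeR adjusted p 0.341). F7 and F10, coagulation factor genes, had non-overlapping values, at 27.2 to 37.9 and 17.4 to 24.6 CPM in KO libraries, against 16.9 to 25.3 and 11.7 to 17.1 CPM in WT libraries; their log2 fold changes were 0.56 ± 0.144 and 0.55 ± 0.149, with edgeR adjusted p of 0.296 and 0.341. Among 13 phagocyte oxidase and superoxide defence genes, 12 lay above 0 with a median of 0.11, or 9 with a median of 0.07 without KO 1, and Cybb, the catalytic subunit, averaged 852 CPM in KO and 739 CPM in WT libraries with a log2 fold change of 0.20 ± 0.083 (edgeR adjusted p 0.566). Over all 35 lists with at least 5 tested genes, 24 medians lay above 0 with all libraries and 19 without KO 1, and 4 changed sign under another scaling.

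**Figure D5:**
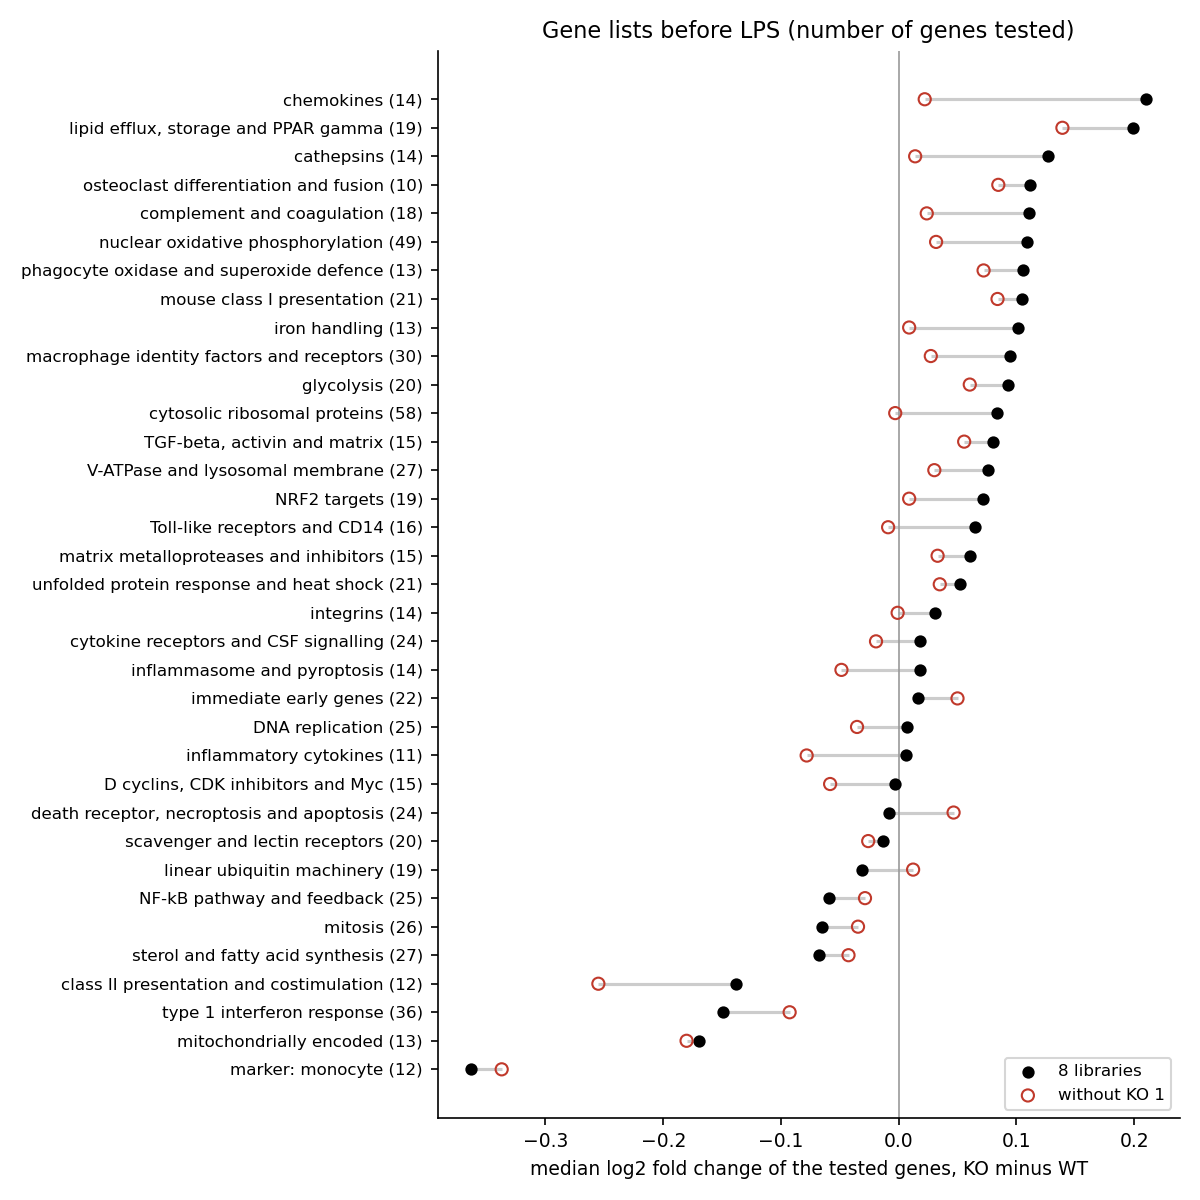
For each of 35 lists with at least 5 tested genes, the median log2 fold change, KO minus WT, is shown over all 8 libraries and without KO 1. Lipid and chemokine genes have the highest medians with all libraries, 0.20 and 0.21, and monocyte markers the lowest, −0.36; the chemokine median is 0.02 without KO 1.

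Markers of other cells set the context for these lists. Monocyte markers lay above 0 in 1 of 12 genes tested with a median of −0.36, or −0.34 without KO 1 and −0.20 without the 2 males. At an unadjusted p below 0.05, 1 was higher and 2 lower, beside 3.46% and 4.21% of all genes. Without KO 1, 1 was higher and 1 lower at that p. The sum of the monocyte markers was 169 to 198 CPM in KO libraries, against 184 to 247 CPM in WT libraries. Fewer monocyte-like cells and less of these RNAs per cell cannot be told apart in bulk libraries, and the part of such a shift in the gene classes above was not tested. Most of that sum was F13a1, a coagulation factor subunit, at 60.2 to 104 CPM in KO libraries, against 81.7 to 130 CPM in WT libraries, and the chemokine receptor Ccr2, at 44.9 to 62.9 and 58.9 to 68.7 CPM, both overlapping. Neutrophil markers summed to 254 to 280 CPM in KO libraries, against 261 to 293 CPM in WT libraries, mostly Mmp8. T and NK cell markers summed to 543 to 727 CPM in KO libraries, against 505 to 620 CPM in WT libraries, nearly all from Il7r, with Cd3e, Cd3g and Gzmb at 0 counts in all 8 libraries. B cell markers summed to 25.0 to 58.9 CPM in KO libraries, against 38.6 to 55.0 CPM in WT libraries, with Cd79a and Pax5 at 0. Red cell and platelet precursor markers summed to 807 to 1182 CPM in KO libraries, against 656 to 1033 CPM in WT libraries, nearly all from the chemokine Pf4, with Alas2, Gp9, Gp1bb and Car1 at 0. Stromal markers summed to 3.26 to 4.98 CPM in KO libraries, against 2.75 to 4.51 CPM in WT libraries, with Dcn, Lum, Pdgfra and Postn at 0, and 7 of 10 mast cell and basophil markers were at 0.

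The genes that the naming rule took for their smallest p, with Vcam1 and Otulin, were also read in the LPS-treated libraries. They are described without a test, scaled within each time separately. All but Otulin were picked for their values at 0 h. The share of all genes without overlap at the later times is not given here. Whether these genes overlap less often than others at those times therefore cannot be read from their values. Ccnd2 had 490 to 611 CPM in KO libraries, against 792 to 1179 CPM in WT libraries at 3 h, and 102 to 135 CPM and 159 to 231 CPM at 24 h. Itgax had 62.6 to 101 CPM in KO libraries, against 35.5 to 44.4 CPM in WT libraries at 3 h, and 32.5 to 43.1 CPM and 13.2 to 23.2 CPM at 24 h. In neither gene did the genotypes overlap at these times, but at 12 h Ccnd2 overlapped, at 435 to 661 CPM in KO libraries and 567 to 661 CPM in WT libraries. Vcam1, Nt5dc2 and Dynlt1a overlapped at each of the 4 later times, Vcam1 with 149 to 194 CPM in KO libraries and 164 to 213 CPM in WT libraries at 3 h. Mmp12 had 833 to 1212 CPM in KO libraries, against 536 to 1006 CPM in WT libraries at 12 h, which overlapped, and 728 to 794 CPM and 407 to 652 CPM at 24 h, which did not. H2-M2 had 114 to 167 CPM in KO libraries, against 70.2 to 84.0 CPM in WT libraries at 3 h, and 155 to 475 CPM and 133 to 246 CPM at 24 h, where they overlapped. Ubb and Fabp4 lay higher in KO without overlap at 3, 6 and 24 h, and overlapped at 12 h. Without overlap at 3 h, Map6 lay higher and Cavin1 lower in KO, and both overlapped at 6, 12 and 24 h. Otulin had 46.0 to 52.3 CPM in KO libraries, against 28.3 to 37.7 CPM in WT libraries at 24 h, with the KO libraries above the WT libraries, and 30.9 to 32.8 CPM and 35.5 to 46.5 CPM at 3 h, with the KO libraries below.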

How the data were processed

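Of 40 libraries in the series, the 8 taken before LPS were used, grouped by their labels as 4 KO and 4 WT. The authors deposited expected counts per Ensembl gene, whole numbers in this table, for 57010 identifiers. The submitters' processing notes name RSEM 1.3.3, UMI-tools 1.1.2, the build GRCm39, STAR 2.7.10a, FastQC 0.11.9 and cutadapt 3.7 without roles; whether reads with the same molecular identifier were collapsed is not given in the sources used here. Symbols for 52029 identifiers came from GENCODE vM21, which is on another build, so no coordinates are printed.

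Genes were kept by edgeR's filter at a minimum count of 10, scaled by TMM and tested by the robust quasi-likelihood F-test of edgeR 4.0.16 in R 4.3.3, KO minus WT, with Benjamini-Hochberg adjustment over all 11734 genes at 0.05. Standard errors are the log2 fold change divided by the root of F, and fold changes use a prior count of 0.125. Tables and plots used Python 3.11.15. CPM are counts per 1000000 counts of the genes tested in a library, divided by its TMM factor (0.978 to 1.03); shares of counts use the library total. Between replicates, chi-square per degree of freedom was 2.55 to 14.2, more than counting noise gives, and no libraries were merged. The script was tested on simulated counts. limma 3.58.1 and DESeq2 1.42.0 were alternatives.

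Named genes were Otulin, its partners and antagonists, death and cytokine genes and Lyz2; the 12 highest and 12 lowest log2 fold changes without overlap between genotypes at a mean of at least 5 CPM; the 10 smallest p at that level; the 20 most abundant genes; and, of each list, the 3 most abundant members and the 2 of smallest p. Genes without a symbol, with provisional symbols, and pseudogenes were counted but not named, except Clec7a. A gene that the rule names is not reported here. The members and the 43 gene lists were chosen with earlier results of these data known. Alternatives covered scaling, filter, tool, sex, replicate block, each left-out library and a fit of all 40 libraries.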

Additional observations from a re-analysis of the deposited data

Results flagged for a closer look

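A library was marked where, among the 4 of its genotype, the gap to its nearest neighbour divided by the group's range exceeded Dixon's 95% critical value for 4 samples. Of 218 groups (KO and WT of 109 genes), 14 were marked, while chance marks about 1 in 20; 11 of them were KO groups, 8 of these through KO 1.

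KO 1 was the lowest KO library for Sharpin, at 22.8 CPM beside 26.9 to 27.3 CPM in the other KO libraries, for Casp8, at 31.8 CPM beside 48.1 to 49.3 CPM, for Slc7a11, a cystine transporter, at 52.8 CPM beside 70.5 to 71.7 CPM, and for Ireb2, an iron sensor, at 112 CPM beside 133 to 137 CPM. It was the highest for Icam2, at 17.7 CPM beside 6.10 to 6.69 CPM, for Ubb, at 428 CPM beside 336 to 352 CPM, for Pf4, at 1178 CPM beside 802 to 859 CPM, and for Hk3, a hexokinase, at 206 CPM beside 123 to 133 CPM. These marks fall in the library that stood apart over all genes.

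Among the other KO libraries, KO 4 had 49.7 CPM of Slamf8 beside 26.4 to 28.2 CPM and 1.81 CPM of Alox5 beside 4.04 to 4.28 CPM, and KO 3 had 614 CPM of mt-Co1 beside 712 to 731 CPM. Among WT libraries, WT 3 had 34.0 CPM of Itgax beside 47.5 to 50.2 CPM, WT 1 had 9.44 CPM of Map6 beside 10.6 to 10.8 CPM, and WT 1 had 2.06 CPM of Vcan, a matrix proteoglycan, beside 3.53 to 3.75 CPM.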

How the results depend on the processing

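The number of genes called was 0 in the main edgeR test and moved with the processing. It was 177 without a filter on low counts, 25 with DESeq2, 9 in a fit of all 40 libraries, 5 with the replicate number as a block (replicate block) and 1 with sex as a covariate. It ran from 0 to 18 when each library was left out, with 18 without KO 1, 2 without KO 2 and 2 without KO 4. Without a filter 23496 genes were tested and edgeR's estimated prior degrees of freedom were infinite, against 7.88 in the main test; the newer quasi-likelihood estimator, chosen after seeing the data, called 0 with the filter and 14 without it. The calls stayed at 0 with the other scalings, the filter at 5 CPM, limma-voom and without the 2 males. The correlations of same-numbered deviations were 0.042, 0.214, −0.211 and −0.096, and those of differently numbered ones ran from −0.222 to 0.164. Deviations were taken from means of 4 libraries, so these values cannot tell whether the replicate numbers pair the libraries.

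Signs turned in genes close to 0. Over the leave-outs, Rnf31 (0.084 with all libraries) ran from −0.039 without KO 4 to 0.215, Casp8 (−0.085) from −0.135 to 0.043 without KO 1, and Sox4 (0.115) and Lyl1 (0.119) from −0.0025 and −0.150 without KO 1 to 0.248 and 0.272. Mlkl (−0.031) ran from −0.162 to 0.088 without WT 1, and was also above 0 without KO 1 (0.057), KO 3 and WT 3. Ighm (0.011) was −0.0041 with library totals, −0.048 with limma-voom, −0.018 with the replicate block, −0.036 with sex as a covariate, and ran from −0.156 to 0.229 over the leave-outs, below 0 without KO 1, KO 2, KO 4, WT 1 or WT 2 in turn. The cause was not tested. For the 109 genes recomputed under every alternative that tested them, 2069 differences kept their direction and side of the threshold, 90 came to pass it and 17 turned sign. Of the medians of gene lists, 667 moved by less than the replicate spread and 33 by more. Of all 206 named genes tested, 29 changed sign without KO 1, with log2 fold changes no farther from 0 than 0.166 with all libraries and 0.156 without it. With 4 libraries a group, genes at low CPM carry the widest intervals.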
